A study of Mus musculus with 4 samples.

Results

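The Snai1 knockout was compared with its control in Flk1+ cells, the fraction of differentiating mouse embryonic stem cells that carries the receptor Flk1 on its surface. The measure was the log2 expression value of a gene on the array labelled KO Flk1+ minus that on the array labelled F/F Flk1+, with 1 array on each side. Each gene was read from 1 probe set, the brightest on average across the 4 arrays of the series. A gene was described where it lay above a floor of 3.19 (log2), the 40th percentile of all values, on at least 1 of the 2 arrays. This held for 10655 of the 17097 genes named on the arrays.

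Both lines formed embryoid bodies, clumps in which stem cells begin to differentiate, first in hanging drops and later in suspension. The bodies were taken apart on day 4 and sorted with an anti-Flk1 antibody, and 50 ng of total RNA served as the start of an amplified cDNA. The control genotype is labelled F/F and the other Snai1 knockout or KO, and the labels give no strain, clone or number of cultures for either line. Of the Flk1- cells used for values set side by side, the control sample is labelled day 4 throughout, whereas the knockout sample has day 4 in its description and day 5 in its source name. With 1 array for each group there was no replicate check, no test could be made, and no difference below can be set against a spread between cultures.

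Snai1 encodes Snail, a zinc finger transcription factor that binds E-box words in DNA and represses epithelial genes, of which Cdh1 (E-cadherin) is the best known. Snail acts at gastrulation, when cells of the epiblast lose their epithelial contacts at the primitive streak and move off as mesoderm, a change called epithelial-mesenchymal transition (EMT). Flk1, the product of Kdr and a receptor for vascular endothelial growth factor, marks early mesoderm that can form blood, vessels and heart.

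The sequences below show where the Snail-type E-box, the word CAGGTG, lies upstream of genes that were higher in knockout Flk1+ cells. Each is the 250 bases before an annotated transcript start, 5′ to 3′ on the strand of the gene, from RefSeq on build GRCm38.p6. Capitals mark the word as CAGGTG or, where it lies on the opposite strand, as CACCTG. The first 3 belong to genes of cell junctions and apical polarity and were chosen after their values were seen, and the other 5 are genes among the furthest higher in the knockout.
Cldn6: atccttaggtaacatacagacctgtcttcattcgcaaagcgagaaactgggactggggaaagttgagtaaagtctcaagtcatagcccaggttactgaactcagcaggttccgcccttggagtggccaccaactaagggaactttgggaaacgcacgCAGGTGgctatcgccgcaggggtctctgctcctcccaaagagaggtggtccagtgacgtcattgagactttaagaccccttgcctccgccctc
Epcam: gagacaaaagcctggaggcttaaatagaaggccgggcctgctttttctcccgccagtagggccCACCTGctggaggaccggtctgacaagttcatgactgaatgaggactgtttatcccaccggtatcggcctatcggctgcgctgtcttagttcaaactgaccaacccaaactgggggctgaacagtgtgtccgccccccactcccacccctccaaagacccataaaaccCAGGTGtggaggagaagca
Crb3: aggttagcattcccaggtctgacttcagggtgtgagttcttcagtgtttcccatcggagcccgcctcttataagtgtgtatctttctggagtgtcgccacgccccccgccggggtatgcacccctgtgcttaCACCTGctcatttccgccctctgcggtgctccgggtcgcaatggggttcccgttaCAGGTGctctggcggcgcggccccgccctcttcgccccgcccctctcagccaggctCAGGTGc
Cer1: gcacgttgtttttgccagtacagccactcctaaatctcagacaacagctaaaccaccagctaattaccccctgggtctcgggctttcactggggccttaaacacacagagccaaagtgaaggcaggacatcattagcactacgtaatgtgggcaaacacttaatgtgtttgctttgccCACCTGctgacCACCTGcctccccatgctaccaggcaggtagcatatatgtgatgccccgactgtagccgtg
Fzd5: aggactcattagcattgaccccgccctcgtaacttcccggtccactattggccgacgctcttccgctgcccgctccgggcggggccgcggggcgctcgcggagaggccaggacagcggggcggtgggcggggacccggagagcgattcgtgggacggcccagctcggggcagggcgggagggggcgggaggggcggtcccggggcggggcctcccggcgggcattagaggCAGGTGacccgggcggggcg
Eras: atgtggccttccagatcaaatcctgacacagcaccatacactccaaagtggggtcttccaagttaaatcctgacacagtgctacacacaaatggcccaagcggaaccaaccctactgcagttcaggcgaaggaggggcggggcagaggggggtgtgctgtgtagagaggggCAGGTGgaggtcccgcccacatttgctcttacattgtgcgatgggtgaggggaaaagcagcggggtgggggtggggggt
Nanog: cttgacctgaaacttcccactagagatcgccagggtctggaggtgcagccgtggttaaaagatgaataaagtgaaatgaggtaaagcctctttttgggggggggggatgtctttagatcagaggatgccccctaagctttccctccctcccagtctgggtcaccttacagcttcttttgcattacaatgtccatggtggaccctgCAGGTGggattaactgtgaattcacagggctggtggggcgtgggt
Ascl2: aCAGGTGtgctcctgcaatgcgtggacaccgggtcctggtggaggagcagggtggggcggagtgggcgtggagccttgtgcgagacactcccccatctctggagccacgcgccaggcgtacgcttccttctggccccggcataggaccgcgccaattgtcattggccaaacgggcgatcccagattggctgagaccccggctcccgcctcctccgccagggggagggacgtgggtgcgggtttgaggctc

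These stretches lie at chr17:23679115-23679364 on the plus strand for Cldn6, chr17:87635729-87635978 on the plus strand for Epcam and chr17:57061951-57062200 on the plus strand for Crb3. Those of the other genes are chr4:82885152-82885401 on the minus strand for Cer1, chr1:64737751-64738000 on the minus strand for Fzd5 and chrX:7928608-7928857 on the minus strand for Eras. The last ones are chr6:122707239-122707488 on the plus strand for Nanog and chr7:142969265-142969514 on the minus strand for Ascl2. Epcam and Cer1 each held 2 copies before the start, and in Cer1 they began at -72 and -61. Crb3 held copies at -118, -63 and -7. Further copies of Cldn6 at 41, of Crb3 at 26 and of Eras at 12 began after the start and are not in the stretch shown. The annotated start of the gene Cldn6, at 23679348, lies inside its stretch. A match shows only that these letters are present, not that the factor binds there.

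The arrays were alike in their number of genes above the floor, which ran from 10195 to 10302. The signal of the 3′ control probe set of Gapdh minus that of the 5′ set, a measure of RNA integrity, was 2.05 (log2) in control and 1.47 in knockout Flk1+ cells, and its part in the differences below was not tested. Snai1 itself was at 2.56 in control and 1.88 in knockout Flk1+ cells. Both values lay under the floor and therefore give no check of the genotype. Kdr was at 8.92 in control and 9.03 in knockout Flk1+ cells, against 4.55 and 3.88 in the Flk1- cells. Its RNA was therefore alike in the Flk1+ fractions and far above the Flk1- fractions. The cells were sorted on the Flk1 protein, whose level the arrays do not measure.

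Markers of cell types were summed as linear signal. Those of Flk1+ mesoderm (Kdr, Pdgfra, Etv2, Tal1, Lmo2, Cdh5, Tie1 and Hand1) summed to 1488 in control and 972 in knockout Flk1+ cells, with 8 and 7 of 8 above the floor, against 411 and 97.8 in Flk1- cells. Hand1 carried most of the gap between the Flk1+ fractions, and the 7 others summed to 880 and 863 there. Those of undifferentiated stem cells were Pou5f1, Nanog, Zfp42, Esrrb, Dppa3, Dppa5a, Klf4 and Tfcp2l1. They summed to 107 and 266 in the control and knockout Flk1+ fractions and to 695 and 1167 in the Flk1- fractions. In the Flk1+ fractions 4 and 5 of the 8 lay above the floor. Dppa5a was at 4.67 and 6.68 there, whereas Klf4 was lower, at 4.40 and 4.18. In the same order the primed epiblast markers (Fgf5, Otx2, Pou3f1 and Dnmt3b) summed to 605 and 1338, then to 1212 and 1980. All 4 were higher in knockout Flk1+ cells, whereas the wider list of primed epiblast genes described below held 14 higher and 5 lower. These are bulk samples, so more cells of a type and more RNA of that type per cell cannot be told apart.

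Most genes lay close together on the 2 Flk1+ arrays. Of the 10655 genes, 9511 (89.3%) were within 0.5 of each other on the log2 scale, the median difference was -0.05 and the quartiles were -0.22 and 0.13. Above 0 lay 4524 genes (42.5%) and below 0 lay 6119 (57.4%). Counts of higher and lower members of a list are to be read beside these shares. At 2-fold or more, 93 genes were higher in the knockout, which is 0.873% of the genes described, and 104 were lower, which is 0.976%. With the arrays centred on their medians the split was 119 higher and 84 lower. At 4-fold or more there were 12 genes higher and 13 lower. In 20 of the 93 and 20 of the 104 the dimmer array lay under the floor, and with such values set to the floor the counts were 81 and 94. Such genes passed the floor only through the brighter array, so 2-fold counts of lists that hold them do not measure the list. Among the 6442 genes under the floor on both arrays the difference had an SD of 0.18, and 2 of them were 2-fold apart.

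**Figure D1:**
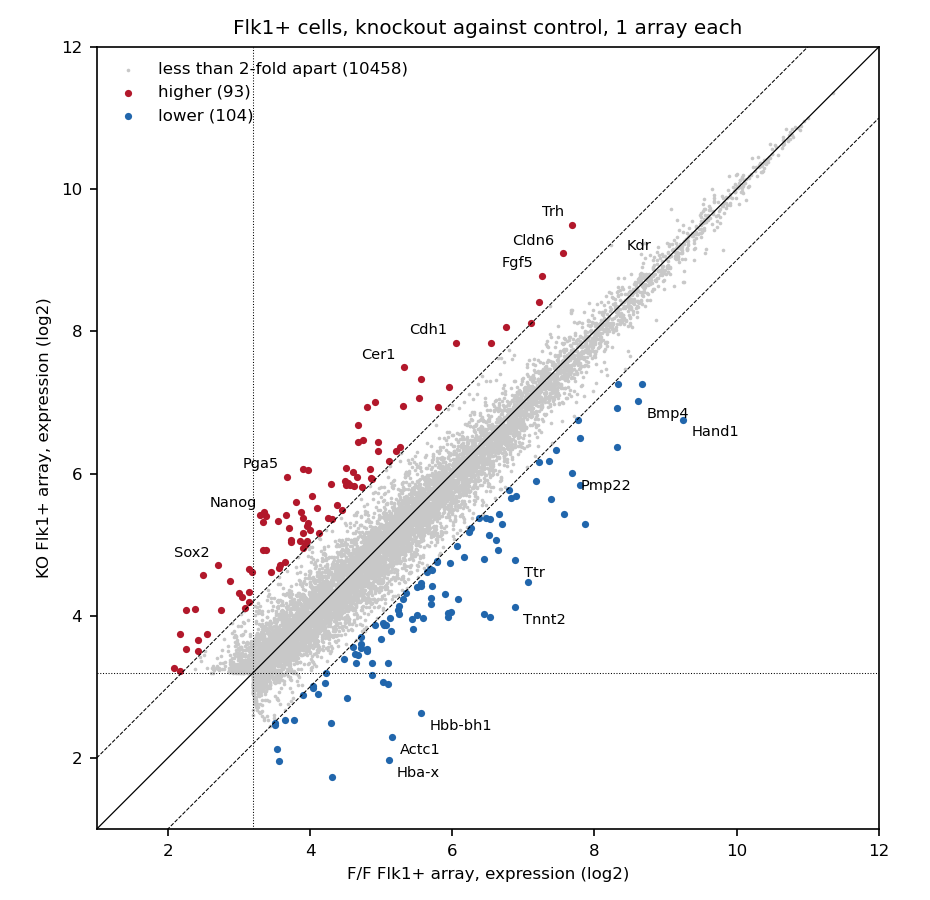
Expression (log2) of 10655 genes on the knockout Flk1+ array (vertical) against the control Flk1+ array (horizontal), 1 array each. The solid line marks equality, the dashed lines 2-fold and the dotted lines the floor of 3.19. The 93 genes 2-fold higher in the knockout are red and the 104 lower are blue, and Kdr lies close to the line of equality.

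The genes that were higher in the knockout were for the most part dim in control Flk1+ cells and brighter in the Flk1- cells. Their median level was 3.97 in control and 5.45 in knockout Flk1+ cells, and 5.50 and 6.17 in control and knockout Flk1- cells. The knockout Flk1+ level was therefore near that of control Flk1- cells. Genes that were lower had a median of 5.62 in control and 4.13 in knockout Flk1+ cells, and of 4.98 and 3.86 in the Flk1- cells. Here the knockout Flk1+ median was below that of control Flk1- cells. Both sets were chosen by the difference between the Flk1+ arrays. That choice alone favours a low value on the dimmer Flk1+ array and a high value on the brighter. Its part in how the Flk1+ medians lie beside the Flk1- medians was not tested.

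**Figure D2:**
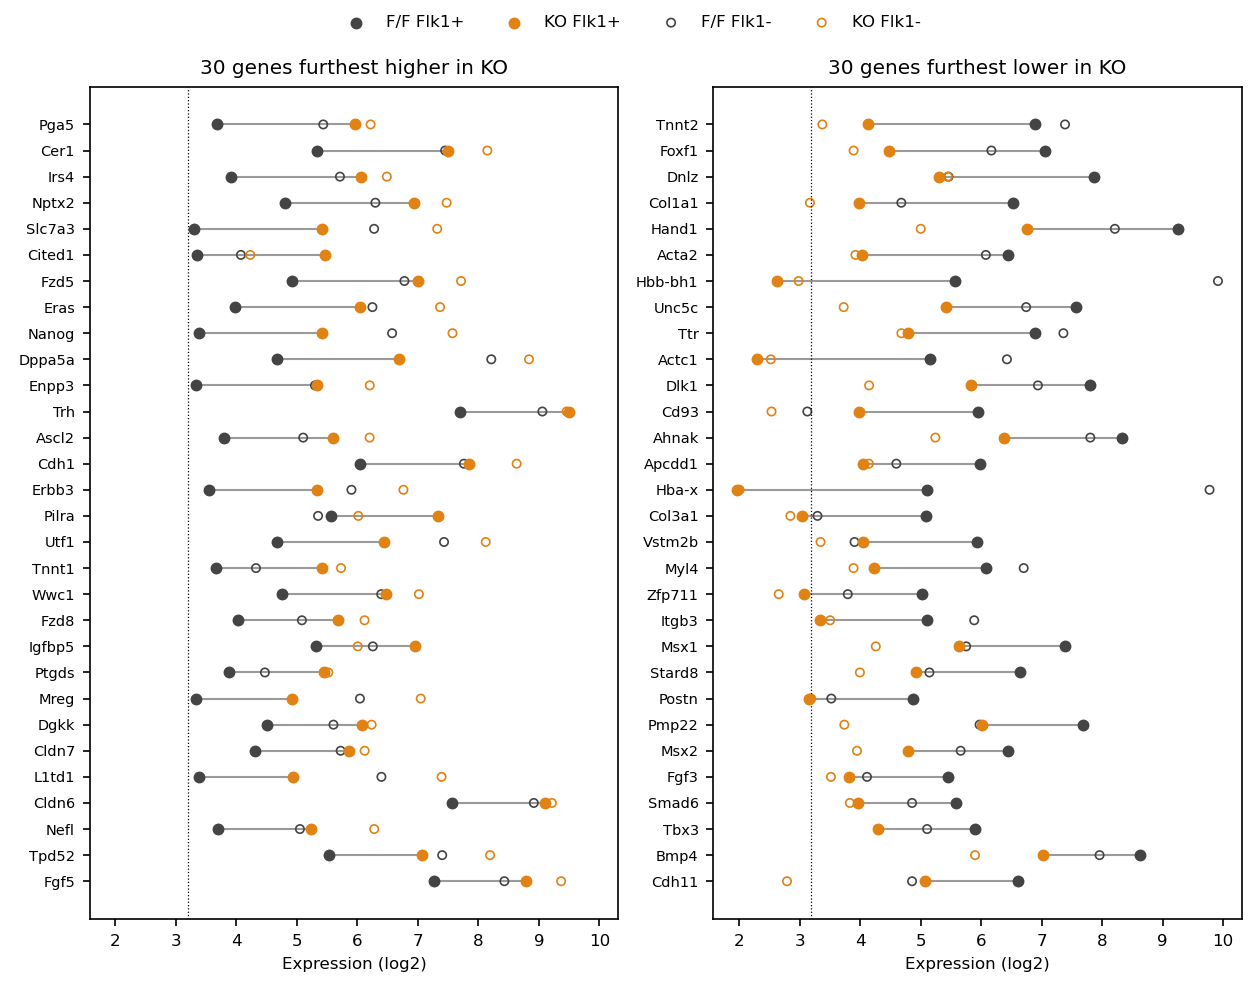
Expression (log2, horizontal) of the 30 genes furthest higher (left) and the 30 furthest lower (right) in knockout Flk1+ cells, ranked with values under the floor set to it. Filled points are the Flk1+ arrays joined by a line, open points the Flk1- arrays, grey for control and orange for knockout, and the dotted line is the floor of 3.19. Col1a1 lies at 6.53 and 3.99 and Pga5 at 3.68 and 5.96 in control and knockout Flk1+ cells.

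Among cell junction genes, Cdh1, Cldn7, Cldn6 and Epcam were 2-fold higher in knockout Flk1+ cells, and the catenins that link cadherins to actin were close. Cdh1 was at 6.05 in control and 7.84 in knockout Flk1+ cells, and at 7.76 and 8.63 in the Flk1- cells. Cldn7, a claudin that seals the space between cells, was at 4.30 and 5.85 in Flk1+ cells, and Cldn6 was at 7.56 and 9.10. Epcam, an adhesion molecule of epithelia and of stem cells, was at 6.55 and 7.84. Of the other claudin genes on the list, Cldn3 was 0.20 higher and Cldn23 was at least 1.13-fold higher. Ocln, Marveld2 and Cgn, which belong to tight junctions, were 0.64, 0.64 and 0.65 higher, and the polarity gene Crb3 was 0.67 higher. The catenins Ctnnb1, Ctnna1 and Ctnnd1 were at differences of -0.01, -0.10 and -0.23. Pard6b, a polarity adaptor, went the other way, from 7.36 to 6.18, and its partner kinase Prkci was at 6.37 and 5.37. Of the 24 members of the junction list above the floor, 16 were higher, 4 of them 2-fold, and 1 was 2-fold lower, with a median difference of 0.33 against -0.05 over all genes described.

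Of the 27 epithelial genes outside the junctions that lay above the floor, 18 were higher in knockout Flk1+ cells, 3 of them 2-fold, and 9 were lower, 0 of them 2-fold, with a median of 0.33. Spint1, a membrane-bound protease inhibitor, was at 4.96 in control and 6.32 in knockout Flk1+ cells, and its relative Spint2 was at 6.87 and 7.67. The protease they inhibit, encoded by St14, was at 4.31 and 5.19. Prom1, a protein of membrane protrusions, was at 4.73 and 5.80, and Rab25, a small GTPase of epithelial vesicle traffic, was under the floor at 3.14 in control and at 4.19 in knockout Flk1+ cells. Esrp1, which sets the epithelial pattern of splicing, was at 4.62 and 5.41, and Grhl2, a transcription factor of epithelia, was at 3.97 and 4.84. Among the keratins, Krt7 was at least 1.31-fold higher, Krt19 was 0.35 higher, Krt18 was 0.17 higher and Krt8 was at -0.14. The desmosome genes Dsp, Dsg2 and Pkp2 were at -0.22, -0.14 and -0.48. Grhl1, a relative of Grhl2, was at -0.20, and Sh3gl2, an endophilin, had the lowest difference of the list, at -0.52.

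The other EMT factors were lower or near 0 in knockout Flk1+ cells, and only Twist2 was 2-fold apart among those named here. Snai2, the close relative of Snai1, was at 6.13 in control and 5.43 in knockout Flk1+ cells. Zeb1 was at 6.41 and 5.55 and Zeb2, a zinc finger repressor of the same kind, at 5.47 and 4.88. Twist1 was at 5.83 and 6.07, and Twist2 was at 3.53 and 2.13, at least 1.26-fold lower against the floor. Mesenchymal products were lower by more. Cdh11, a cadherin of mesenchyme, was at 6.61 and 5.07, Postn, a matrix protein, was at least 3.20-fold lower, and Vcan, a large proteoglycan, was at 8.44 and 7.47. Prrx2 and Foxc1, both transcription factors of mesenchyme, were 0.80 and 0.77 higher. Of 27 members above the floor 19 were lower, 3 of them 2-fold, and 0 were 2-fold higher, and the median was -0.48. Postn and Twist2 passed the floor only through the control array, so the count of 3 is no measure of the list. Pdgfra, a receptor of early mesoderm, was at 4.62 and 4.32.

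Pluripotency genes made up 10 of the 93 genes that were 2-fold higher, which is 45.5% of the 22 listed, beside 0.873% of all genes described. Eras, a Ras protein of stem cells, was at 3.97 in control and 6.05 in knockout Flk1+ cells. Utf1 was at 4.67 and 6.45, L1td1, an RNA-binding protein of stem cells, at 3.38 and 4.93, and Dppa3, also known as Stella, at least 2.77-fold higher. Pou5f1, which encodes Oct4, was at 4.86 and 5.94. All of these were brighter still in knockout Flk1- cells, where Eras was at 7.37, Utf1 at 8.12, L1td1 at 7.39 and Pou5f1 at 7.67. Other members were near 0, with Klf4 at -0.22, Klf5 at -0.03, Sall4 at 0.17 and Klf2 at 0.17. Tbx3, which mesoderm also expresses, was at 5.91 and 4.30 and was the 1 member that was 2-fold lower. The list had 22 members above the floor, 19 of them higher, and a median of 0.32. Dppa3 passed the floor only through the knockout array, and 9 listed genes were left out as under it on both. The count of 10 is therefore no measure of the list.

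Genes of the primed epiblast, the epithelium from which mesoderm leaves, were higher together with regulators of the anterior epiblast and early neural plate. Fgf5, the growth factor that marks this epithelium, was at 7.26 in control and 8.78 in knockout Flk1+ cells. The transcription factor Otx2 was at 7.11 and 8.12, Zic2 at 5.17 and 5.90 and Zic5 at 4.03 and 4.96. Slc7a3, a transporter of basic amino acids, was at 3.29 and 5.41, and Pim2, a serine kinase, at 3.97 and 5.30. Dnmt3b, the DNA methyltransferase of the epiblast, was at 8.24 and 9.21, whereas Dnmt3a was at 7.80 and 7.49. Cdh2, the neural and mesodermal cadherin, had a difference of -0.75. Of 19 members above the floor, 6 were 2-fold higher and 1 lower, and the median was 0.24.

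Only 9 of 24 neural ectoderm genes on the arrays lay above the floor, and 5 of those 9 were 2-fold higher. They were Sox2, Six3, Pou3f1, Hesx1 and Otx2, and Hesx1 was at least 1.02-fold higher against the floor. Sox2 was at 2.71 in control and 4.71 in knockout Flk1+ cells, and Six3, a forebrain regulator, at 3.05 and 4.26. The 3 probe sets of Six3 ranged from 0.08 to 1.21 and those of Pou3f1 from 0.04 to 1.10. Pax6 was at 3.57 on both arrays. Because a dim gene passes the floor through the array where it is brighter, the count over these 9 genes is no measure of the list. With the alternative floors and scales its median ran from 0.15 to 1.10.

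A further set of higher genes, named here after their values were seen, is known from neurons and neuroendocrine cells. Nptx2, a secreted synaptic protein, was at 4.80 in control and 6.94 in knockout Flk1+ cells, and Nefl, the light neurofilament, at 3.70 and 5.24. Trh, the precursor of thyrotropin-releasing hormone, was at 7.69 and 9.50 and was the brightest of the genes furthest higher. Chga, a granule protein, was at 3.73 and 5.06, and Insm1, a zinc finger factor of endocrine progenitors, at 3.73 and 5.03. Kif1a, a motor of axonal transport, was at 4.88 and 5.92, Tubb4a, a neuronal tubulin, at 4.50 and 5.89, and Chrnb4, a nicotinic receptor subunit, at 4.57 and 5.83. In the Flk1- cells each of these genes was also higher in the knockout, from 0.31 for Insm1 to 1.23 for Nefl.

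Endoderm genes were higher in knockout Flk1+ cells in 22 of 31 cases, 6 of them 2-fold, and 1 was 2-fold lower. Cer1, which encodes Cerberus, an antagonist of Nodal and BMP, was at 5.32 in control and 7.50 in knockout Flk1+ cells. Pga5, a pepsinogen gene, was at 3.68 and 5.96 and had the largest positive difference of the genes described. Sox17, a transcription factor of endoderm, was 0.96 higher, and Hhex was at 6.35 and 7.13. Ttr, which encodes transthyretin, was at 6.89 and 4.79, with its other probe set at -0.60. Apob and Rbp4 were both at -0.63. Gata4 and Gata6, which cardiac mesoderm shares with endoderm, were at -0.54 and -0.29. The median of the list, 0.70, ran from 0.59 to 0.77 over the alternatives. The summed signal of 8 endoderm markers was 246 in control and 239 in knockout Flk1+ cells.

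Of 21 Nodal pathway genes above the floor, Cer1, Nodal and Lefty1 were 2-fold higher in knockout Flk1+ cells and 0 were 2-fold lower. Nodal was at 4.45 in control and 5.48 in knockout Flk1+ cells, and its feedback antagonist Lefty1 was at 3.65 and 4.76. The other probe set of Nodal was at 0.31. Eomes and Mixl1, transcription factors that Nodal turns on in the streak, were at 7.21 and 6.39 and at 5.31 and 4.55. Both were lower in the knockout, whereas Gsc, another such target, was higher, at 3.32 and 3.89. Receptor and Smad genes were closer, with Acvr1b at -0.35, Acvr2a at -0.22, Smad2 at 0.11 and Smad3 at -0.38. The median of the list, -0.01, changed sign over the alternatives.

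Primitive streak genes were lower in 13 of 21 cases, near the share of 57.4% over all genes described, and their median was -0.24. Mesp1, which marks the first cardiac mesoderm, was at 5.25 in control and 4.79 in knockout Flk1+ cells, and Evx1 was at 5.78 and 5.07. Aplnr, the apelin receptor of migrating mesoderm, was at 9.25 and 8.70. Cyp26a1, which breaks down retinoic acid, was at 7.39 and 7.92, and Lhx1 at 7.09 and 7.23. Fgf3 was the 1 member that was 2-fold apart, at 5.45 and 3.82, although its other probe set was at -0.14. Paraxial mesoderm genes, which form somites, had a median of 0.04 and 0 of 15 members 2-fold apart, with Tbx6 at 0.14, Msgn1 at 0.20 and Meox1 at 0.45.

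Components of the FGF, Wnt and insulin-like growth factor pathways were found on both sides. Among FGF genes, Fgf8 was at 4.09 in control and 4.79 in knockout Flk1+ cells, and the feedback inhibitors Spry4, Spry1, Dusp4 and Dusp6 were 0.93, 0.81, 0.83 and 0.60 higher. Dusp9, of the same family as Dusp4 and Dusp6 but not on the list, was 2-fold lower, at 6.82 and 5.66. The receptors Fgfr1, Fgfr2 and Fgfr3 were at -0.49, -0.83 and -0.61. Of 23 FGF genes above the floor 1 was 2-fold higher, Fgf5, and 2 were 2-fold lower, Fgf3 and Fgf15. Of these Fgf15 passed the floor only through the control array. With values on both sides the medians lay near 0, and the FGF median of -0.12 and the Wnt median of 0.07 each changed sign over the alternatives.

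Wnt receptors of the Frizzled family included 2 of the genes that were furthest higher. Fzd5 was at 4.92 in control Flk1+ cells and 2.08 higher in the knockout, and Fzd8 was at 4.03 and 5.68. The other probe set of Fzd5 was at 0.41. The secreted antagonists Dkk1 and Sfrp1 were 0.91 and 0.94 higher, and Sfrp5 was at least 1.89-fold higher. Apcdd1, a membrane inhibitor of the pathway, was at 5.98 and 4.05, the ligand Wnt5a at 6.28 and 5.37, and the agonist Rspo3 at 5.51 and 4.65. Axin2 and Sp5, which the pathway induces, were at -0.45 and -0.27. In all, 3 of 35 members were 2-fold higher and 3 were 2-fold lower. The probe sets of Dkk3, 1 of those 3 lower genes, ranged from -1.13 to 0.23.

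In the insulin-like growth factor system, 5 of 13 genes above the floor were 2-fold higher in knockout Flk1+ cells and 0 were 2-fold lower. Irs4, which relays receptor signals, was at 3.91 in control and 6.06 in knockout Flk1+ cells, with its other probe set at 0.56. The binding protein genes Igfbp2 and Igfbp5, neighbours on chromosome 1, were at 6.76 and 8.06 and at 5.31 and 6.94. Igfbp3 was at least 2.61-fold higher and Pappa, a protease that cleaves binding proteins, at least 2.67-fold higher. Igfbp3 and Pappa passed the floor only through the knockout array, so the count of 5 is no measure of the list. Igf2 was at 10.64 and 10.58, Igf1r at 6.81 and 6.64 and Insr at 5.33 and 4.91. Other members of the same kinds were lower, with the binding protein gene Igfbp4 at 10.04 and 9.79 and the docking protein gene Irs1 at 3.92 and 3.32. The median of the list was -0.05. Igfbp5 and Pappa were not higher in knockout Flk1- cells, with differences of -0.25 and 0.00 there.

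Most lateral plate and heart regulators were lower in knockout Flk1+ cells. Hand1, a basic helix-loop-helix factor of extraembryonic and lateral mesoderm, was at 9.25 in control and 6.76 in knockout Flk1+ cells, and at 8.21 and 5.00 in the Flk1- cells. Foxf1, which lateral and allantoic mesoderm express, was at 7.06 and 4.48. Mef2c was at 5.50 and 4.01, Tbx20 at 8.51 and 7.66 and Hey2 at 6.04 and 5.35. Isl1, a factor of the second heart field, was at 7.21 and 7.33, Myocd at 6.05 and 6.13 and Foxp1 at 5.52 and 6.11. Of 22 members above the floor 17 were lower, 5 of them 2-fold, and 0 were 2-fold higher, with a median of -0.40. These counts include Ahnak, a large scaffold protein and no regulator, as 1 of the 5. It was at 8.32 and 6.37, but its 4 probe sets ranged from -1.95 to 0.05.

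Contractile genes were represented by a few large differences and many small ones. Tnnt2, the cardiac troponin, was at 6.88 in control and 4.12 in knockout Flk1+ cells. Actc1, the cardiac actin, was at least 3.89-fold lower, and Myl4, an atrial light chain, was at 6.08 and 4.23, with its other probe set at 0.14. Acta2 was at 6.45 and 4.03, and its other probe set was at 0.03. Myh7 was at 6.83 and 6.03 and Tpm2 at 6.99 and 6.50. Tnnt1, the slow skeletal troponin, went the other way, at 3.66 and 5.42. The list had 4 members 2-fold lower and 1 higher of 24, and a median of -0.19. Actc1 passed the floor only through the control array, so the count of 4 is no measure of the list. The cardiac markers summed to 247 in control and 99.1 in knockout Flk1+ cells, with 3 and 2 of 4 above the floor.

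The BMP pathway combined a lower ligand with lower levels of some of its targets but not of the Id genes. Bmp4 was at 8.62 in control and 7.02 in knockout Flk1+ cells, and at 7.96 and 5.90 in the Flk1- cells. The homeobox targets Msx1 and Msx2 were at 7.38 and 5.64 and at 6.45 and 4.80. The other probe set of Msx2 was at -0.27. Smad6, a feedback inhibitor, was at 5.59 and 3.97, and Smad7 at 6.16 and 5.36. Id1, Id2, Id3 and Id4, which BMP signals induce in many cells, were at differences of 0.56, 0.01, 0.25 and 0.35. Of 24 members 6 were 2-fold lower and 0 were 2-fold higher, with a median of -0.27.

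Matrix genes were mostly lower, led by collagens. Col1a1 was at 6.53 in control and 3.99 in knockout Flk1+ cells, and Col3a1 was at least 3.74-fold lower. Col9a1 was at 4.88 and 3.33. The other probe sets of Col3a1 and Col9a1 had smaller log2 differences, of -0.43 and -0.35. The basement membrane genes Col4a2 and Nid1 were at 6.69 and 5.92 and at 7.08 and 6.40, whereas the laminin genes Lamb1, Lamc1 and Lama1 were at -0.04, 0.26 and 0.23. Of 30 members 23 were lower, 3 of them 2-fold, with a median of -0.36. Col3a1 passed the floor only through the control array, so the count of 3 is no measure of the list. Col1a1, Col3a1 and Postn are also markers of the fibroblasts used as feeder layers, and 21 such markers summed to 420 in control and 271 in knockout Flk1+ cells, with 8 and 7 above the floor. The part of such cells in the collagen values was not tested. Itgb3, an integrin chain, was at 5.10 and 3.33, and its other probe set was at -0.08. Of 10 integrin genes above the floor it was the 1 that was 2-fold apart.

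**Figure D3:**
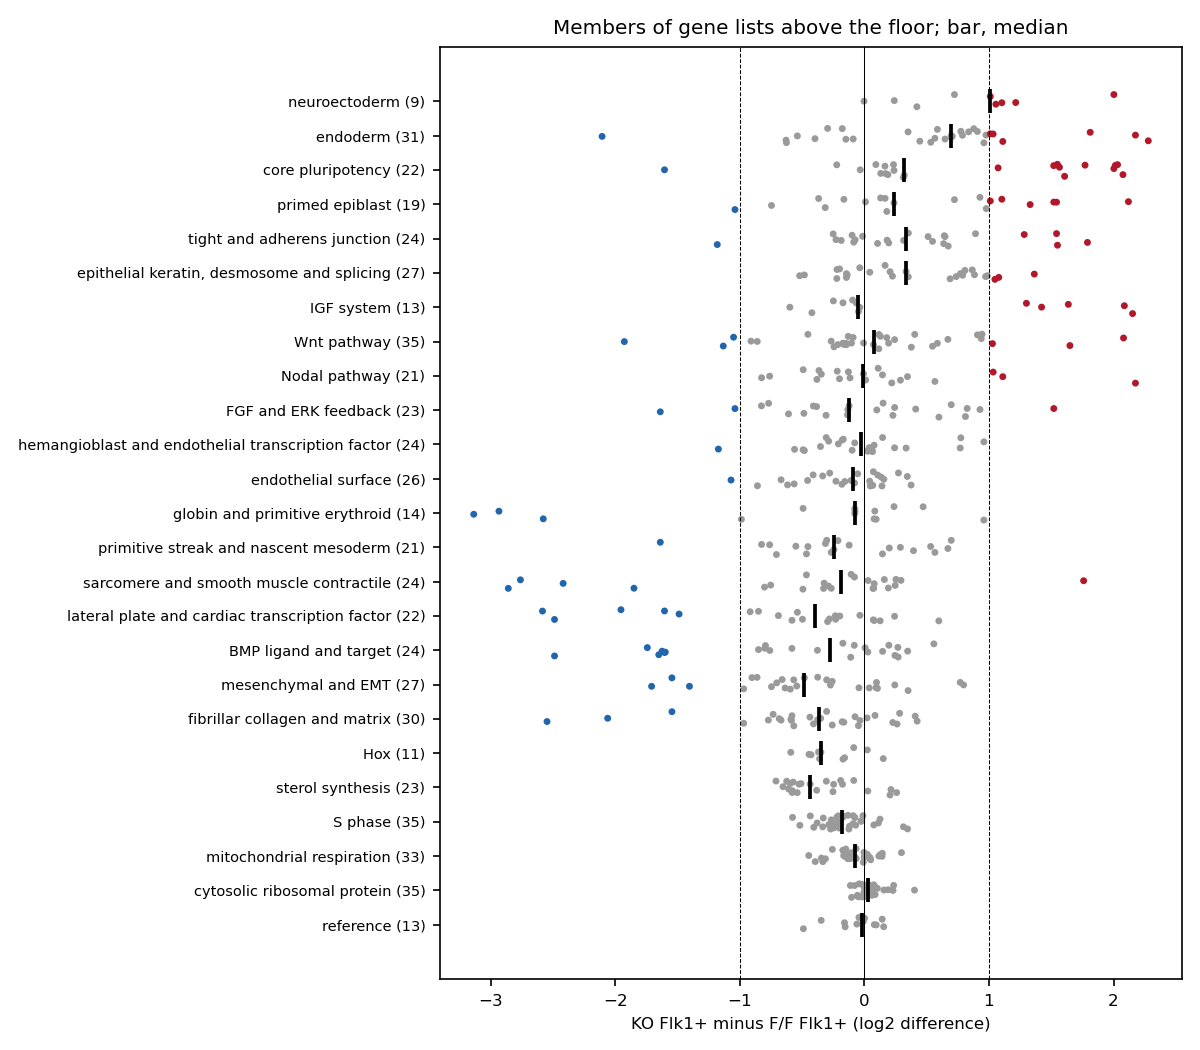
Knockout minus control log2 difference in Flk1+ cells (horizontal) for the members of 25 gene lists that lay above the floor, with their number in brackets. Each point is a gene, red or blue where it was 2-fold higher or lower, and the bar is the median, which runs from -0.48 for mesenchymal and EMT genes to 1.01 for neuroectoderm genes.

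Blood and vessel genes behaved differently from one another. The embryonic globin genes Hbb-bh1, Hba-x and Hbb-y were at 5.56, 5.11 and 4.31 in control Flk1+ cells and under the floor in knockout Flk1+ cells, at 2.63, 1.97 and 1.73. They were therefore at least 5.17-fold, 3.77-fold and 2.17-fold lower. The primitive erythroid markers summed to 117 and 29.3 in these fractions and to 2329 in control Flk1- cells, where most of the globin signal lay, and the part of such cells in the control Flk1+ values was not tested. Erythroid regulators in Flk1+ cells lay near the floor on both arrays, with Gata1 at 3.35 and 3.43 and Epor at 3.40 and 3.33.

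Regulators of the hemangioblast, the common precursor of blood and vessel cells, were mostly close. Etv2, which is required for this lineage, was at 6.74 in control and 6.80 in knockout Flk1+ cells. Lmo2 was at 7.36 and 7.07, Tal1 at 5.11 and 4.62, Gata2 at 4.86 and 5.00 and Runx1 at 4.13 and 3.82. Ets1, at 6.53 and 5.36, was the 1 of 24 members that was 2-fold apart. On the cell surface, Cdh5 was at 5.76 and 5.42, Flt1 at 6.32 and 6.66 and Tek at 5.38 and 4.52. Nrp1, a co-receptor for vascular endothelial growth factor and semaphorins, was at 8.33 and 7.26 and was the 1 of 26 surface genes that was 2-fold apart. The surface list had a median of -0.09 and the transcription factor list one of -0.03, which changed sign over the alternatives.

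Several other genes of vessels and their surrounding cells were 2-fold lower and belong to neither list, and they were named after their values were seen. Cd93, a receptor of endothelial and blood cells, was at 5.94 in control and 3.98 in knockout Flk1+ cells, with probe sets from -1.96 to -0.19. Ctla2a was at 7.18 and 5.89, Rgs5, a regulator of G proteins in pericytes, at 8.32 and 6.92, and Ece1, which makes endothelin, at 7.22 and 6.16. Ackr3, a scavenger receptor for the chemokine Cxcl12, was at 6.70 and 5.29 in Flk1+ cells and at 5.50 and 5.85 in Flk1- cells. Cd93 and Ctla2a were dim in both Flk1- samples, at 3.13 and 2.54 and at 3.51 and 3.41.

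Guidance genes were found on both sides. Unc5c, a netrin receptor, was at 7.57 in control and 5.43 in knockout Flk1+ cells, and at 6.74 and 3.73 in the Flk1- cells. Ntn1, which encodes a netrin, was at least 1.86-fold higher, although its other probe set was at 0.02. Sema3a, a secreted semaphorin that binds Nrp1, was at 5.21 and 6.31. The ephrins Efnb1, Efnb2 and Efnb3 were at -0.64, -0.48 and -0.47. Of 35 members 2 were 2-fold higher and 2 were 2-fold lower, and the median of 0.12 changed sign over the alternatives.

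Notch, hedgehog, retinoic acid, Hox and imprinted genes showed few 2-fold differences. Dlk1, an imprinted gene of the Delta family, was at 7.79 in control and 5.84 in knockout Flk1+ cells. Ascl2, an imprinted basic helix-loop-helix factor of trophoblast, was at 3.80 and 5.60, with probe sets from -0.04 to 1.79. Jag1 and Mfng of the Notch pathway were both 0.59 higher. Ptch1, the hedgehog receptor and target, was at 7.05 and 6.09, Gas1, a co-receptor, at 6.53 and 5.75, and Crabp1, which binds retinoic acid, at 6.47 and 5.56. Of 21 hedgehog and retinoic acid genes 14 were lower and 0 were 2-fold apart, with a median of -0.29. Of 34 Hox genes on the arrays 11 lay above the floor and 23 below it. Among the 11, 9 were lower, from Hoxb3 at 4.10 and 3.51 to Hoxa3 at 5.08 and 5.00. Their median of -0.35 ran from -0.35 to -0.09 over the alternatives. Hoxb1, Hoxb4 and Hoxd9 passed the floor only through the control array, so the count is no measure of the list.

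The lists of metabolism, cell cycle, stress response, DNA methylation and housekeeping held no 2-fold difference other than that of Slc7a3. Sterol synthesis genes were lower in 19 of 23 cases, with a median of -0.43 in Flk1+ cells and -0.08 in Flk1- cells. Dhcr7 was at 7.22 and 6.62, Insig1, a sterol sensor, at 7.67 and 7.09, and Fdps at 6.32 and 5.74. S phase genes were lower in 30 of 35 cases, with a median of -0.18, and Cdt1, which licenses replication origins, was at 7.64 and 7.12. Ribosomal protein genes had a median of 0.03, reference genes one of -0.02 and mitochondrial respiration genes one of -0.08. Actb was at 10.65 and 10.73 and Gapdh at 11.35 and 11.36. The reference median changed sign over the alternatives.

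The genotype difference was also read in the Flk1- cells, which share no array with the Flk1+ cells. There 41 of 10533 genes were 2-fold higher (0.389%) and 100 were lower (0.949%). Of the 93 genes higher in knockout Flk1+ cells, 87 were also above 0 in Flk1- cells and 5 were below, with a median difference of 0.68 there against 1.33 in Flk1+ cells. Of the 104 lower genes, 93 were also below 0 and 11 were above, with a median of -0.61 against -1.28. Over all genes described in Flk1+ cells the median difference in Flk1- cells was 0.03. The shares of all these genes above and below 0 there were not counted. Genes chosen for a large difference in Flk1+ cells can have smaller ones elsewhere by that choice alone, so the medians do not rank the fractions. In Flk1- cells 24 of the lower genes but 3 of the higher genes lay further apart than in Flk1+ cells.

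Some genes that were 2-fold apart in Flk1+ cells were close to 0 in Flk1- cells. Cited1, a transcriptional co-activator, was at 3.35 in control and 5.46 in knockout Flk1+ cells but at 4.07 and 4.23 in Flk1- cells. Elmo1, which links receptors to cell migration, was at 4.96 and 6.44 but at 5.30 and 5.18 in Flk1- cells. Lifr, the receptor for leukemia inhibitory factor, was at 6.52 and 5.14 but at 5.85 and 5.76 in Flk1- cells. Ell2 was at 4.01 and 5.20 and at 6.50 and 6.54. These genes were chosen after their values were seen, and the difference between fractions was not tested. In all, 12 of the 93 and 22 of the 104 genes were within 0.25 of 0 in Flk1- cells. The share of all genes described that lay within 0.25 of 0 there was not counted.

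**Figure D4:**
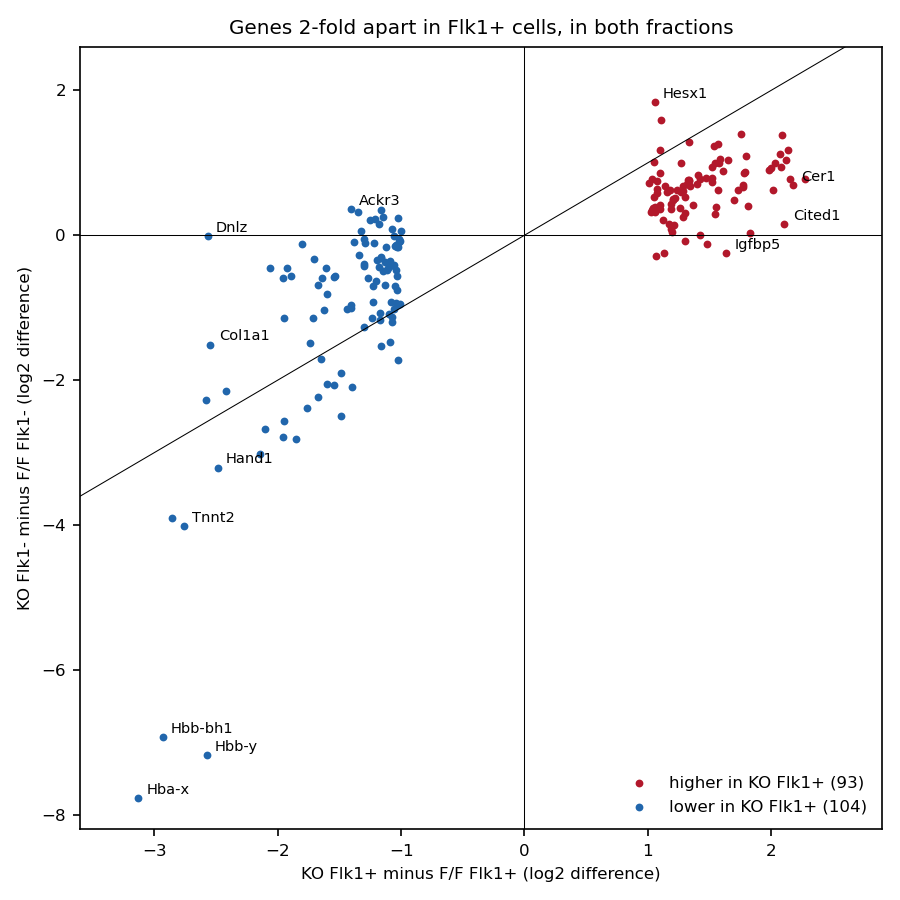
Knockout minus control log2 difference in Flk1- cells (vertical) against that in Flk1+ cells (horizontal) for the 93 genes 2-fold higher (red) and 104 lower (blue) in knockout Flk1+ cells, with the diagonal marking equal differences. The embryonic globin genes Hba-x, Hbb-y and Hbb-bh1 lie lowest, at -7.77, -7.17 and -6.93 in Flk1- cells, and Cited1 and Dnlz lie near 0 there.

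Probe sets of the same gene gave a partial check of single values. Of the 93 higher genes, 52 had 1 probe set. Among the 41 with several, 35 had the same sign in all of them and 4 were 2-fold in all of them. In 18 a probe set was less than 0.25 higher or not higher at all, and 6 of these had one at 0 or below. Of the 104 lower genes 57 had several probe sets, of which 44 kept the sign and 9 were 2-fold in all. In 27 a probe set was less than 0.25 lower or not lower at all, and 13 of these had one at 0 or above. Dnlz, at 7.87 in control and 5.30 in knockout Flk1+ cells, had probe sets from -2.57 to 0.31. At the edge of the 2-fold rule, which reads the deposited values, lay Otx2, Sfrp5 and Prrg4, at 1.01, 1.03 and 1.03, and just outside it Slc35f2, at 0.99. On the lower side Chst2 and Dync2li1 were both at -1.01, just inside, and Abtb2 was at -0.99, just outside.

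Position in the genome was read from the annotation of GRCm38.p6. Over the 20 chromosomes with at least 100 genes described, the median difference ran from -0.10 to -0.01, so no chromosome was shifted as a whole. The X chromosome had 7 of 326 genes 2-fold higher (2.15%) and 10 of 326 lower, which are the highest shares of these 20 chromosomes in both directions, beside 0.873% and 0.976% over all genes described. These were read after the values were seen, from few genes, and were not tested. In 10 pairs of neighbours within 100 kb both genes were 2-fold apart, and in all 10 pairs both went the same way. How often neighbours share a direction over all genes described was not counted, so the 10 pairs are a description only. Higher pairs included Dppa3 and Nanog on chromosome 6, 77.2 kb apart, Pim2 and Eras on the X chromosome, 40.8 kb apart, and Igfbp2 and Igfbp5, 5.59 kb apart. Lower pairs included Fgf3 and Fgf15 on chromosome 7, 53.2 kb apart, Hbb-bh1 and Hbb-y, 8.59 kb apart, and Myl4 and Itgb3 on chromosome 11, 20.8 kb apart. Pilra and Pilrb1 on chromosome 5, both higher, are related receptor genes, and the Igfbp, Fgf and Hbb pairs are each of 1 gene family. Signal shared between the probe sets of such pairs was not tested.

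The Snail-type E-box was then counted in promoter windows from 250 bases before to 50 after each annotated transcript start, on both strands. A gene counted where any of its windows held the word. CAGGTG was present in 32 of 70 higher genes with a window (45.7%), in 9 of 71 lower genes (12.7%) and in 1831 of all 8601 genes described that had one (21.3%). The word was in 20.2% of all 32851 windows of the promoter list. The E-box word CAGCTG, which shares the outer letters, was in 17.1%, 18.3% and 17.9% of the higher, lower and all genes, and CACGTG in 7.14%, 9.86% and 12.0%. The mean GC content of the windows was 59.2%, 61.0% and 61.0%. The 3 words differ in their middle letters, so the same full stretch cannot count as more than 1 of them, and the shares are descriptions of these genes.

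**Figure D5:**
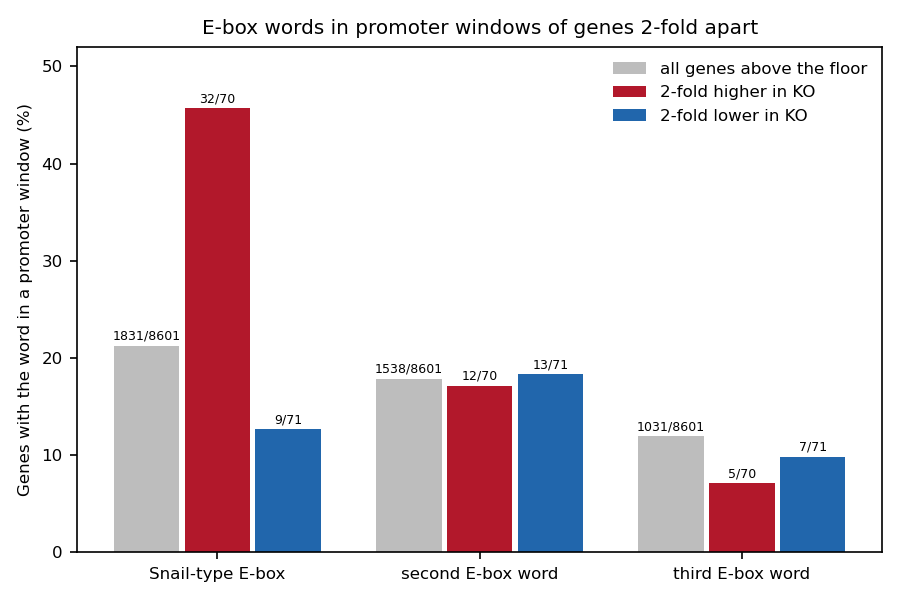
Share of genes (%, vertical) with an E-box word in a promoter window of 300 bases, for all genes described (grey), genes 2-fold higher (red) and genes 2-fold lower (blue) in knockout Flk1+ cells. The Snail-type word is CAGGTG, the second word CAGCTG and the third CACGTG, and the numbers over the bars are genes with the word and genes with a window. The share of CAGGTG is 45.7% for higher and 12.7% for lower genes.

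More copies went with more higher genes. Genes with no copy (6770) had a median difference of -0.06, and 0.561% of them were 2-fold higher. Those with 1 copy (1573) had a median of -0.02 and 1.34% higher, and those with 2 or more in 1 window (258) had a median of 0.05 and 4.26% higher. On the lower side the shares were 0.916%, 0.381% and 1.16%. Epithelial genes carried the word often, in 14 of 20 junction genes (70.0%) and in 12 of 15 genes of the keratin, desmosome and splicing list (80.0%). Without the members of both these lists, 42.2% of the higher genes (27 of 64) and 11.4% of the lower ones (8 of 70) held it. Within the 2 lists, the 26 genes with the word had a median difference of 0.53, and 20 were higher. The 9 without it had a median of -0.01, but among these was Spint1, at 4.96 and 6.32. Another 16 members, Cdh1 among them, had no window in the promoter list, and their median was 0.26, with 10 higher. The 2 lists differed when read apart. Junction genes had a median of 0.53 with the word (14 genes) and -0.10 without it (6 genes). In the keratin, desmosome and splicing list the medians were 0.54 with it (12 genes) and 0.69 without it (3 genes).

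In Flk1- cells the word was in 11 of 28 genes that were 2-fold higher in the knockout (39.3%), in 9 of 66 that were lower (13.6%) and in 21.4% of all. Of the pluripotency genes described, 2 of 14 held it, among them Nanog, shown above. Of the mesenchymal and EMT genes 1 of 14 held it, of the lateral plate and heart regulators 2 of 14, and of the endoderm genes 6 of 21. Primed epiblast genes held it in 6 of 13 cases (46.2%).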

How the data were processed

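The 4 Affymetrix arrays hold 1 sample each of control or Snai1 knockout cells, Flk1+ or Flk1-. The deposited values are log2 expression values per probe set (45141), made with RMA and limma, per the submitters' processing notes. Their versions and roles are not given in the sources used here. No normalization was added to the log2 values of the authors. Of the probe sets, 104 were controls, 28898 had 1 gene in the platform annotation, 551 had several and 15588 had none. Of 17097 genes, 16937 were found in the RefSeq gene table (GRCm38.p6).

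A gene was read from its brightest probe set, by the mean over all 4 arrays. The floor was the 40th percentile of all gene values (3.19). A gene counted as higher or lower at a log2 difference of at least 1 in size, above the floor on at least 1 of the arrays compared. Folds with the dimmer value under the floor were computed against the floor and are given as "at least". The number of arrays limits the precision, and with 1 array per group no test was made. Gene lists (45) are described by counts and medians of the members above the floor. Named genes were the 30 furthest apart each way with values under the floor set to it, up to 5 members of a list in the direction of its median and up to 2 the other way, Snai1, Kdr, Cdh1, Snai2, Zeb1, Zeb2, Twist1 and Pdgfra, and genes at the edge of the 2-fold rule. Other genes were named after their values were seen. The members and lists were chosen with earlier results of these data known.

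Alternatives were other fold rules, floors and scalings, the mean of the probe sets, leaving out probe sets of the _s_at and _x_at classes and, for promoters, a shorter window, the 1.5-fold rule and genes with 1 promoter. The last was chosen after seeing the data. The counting was tested on simulated data. Python 3.11.15, pandas 2.3.3 and numpy 2.4.6 were used.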

Additional observations from a re-analysis of the deposited data

Results flagged for a closer look

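Probe sets that the annotation pairs with no gene or with several genes were not used in any comparison above, and signal appeared among them. Of 5984 such probe sets above the floor on at least 1 Flk1+ array, 48 were 2-fold or more higher in knockout Flk1+ cells and 46 were lower, with differences from -3.68 to 2.15. Their genes were not named here.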

How the results depend on the processing

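With other size rules the counts moved, to 347 genes higher and 471 lower at 1.5-fold and to 26 and 33 at 3-fold. At 2-fold they ran from 71 to 119 higher and from 76 to 105 lower over the floors, scalings and probe set rules tried. Under all of these together, 60 of the 93 higher and 47 of the 104 lower genes kept their call. With the mean of the probe sets, 67 and 70 of them did. Without the _s_at and _x_at classes of probe sets, Dnlz had a difference of 0.28, against -2.57, because another probe set then stood for it. The share of higher genes with CAGGTG was 32.9% in a window of 150 bases before to 50 after the start, against 7.04% of lower and 13.9% of all genes. It was 36.9% at the 1.5-fold rule and 43.6% among genes with 1 promoter. No paired analysis was possible because each group has 1 array and the labels carry no replicate numbers. The deposited values hold no spread between cultures, and genes near the floor have only a bound.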

Other observations

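Genes of vesicle traffic, the cytoskeleton and cell adhesion that belong to no list described above were also among those 2-fold apart, and were chosen here after their values were seen. Wwc1, also known as Kibra, a regulator of the Hippo pathway, was at 4.75 in control and 6.48 in knockout Flk1+ cells. Its 4 probe sets ranged from 0.29 to 1.73. Camsap3, which anchors microtubule minus ends in epithelia, was at 4.62 and 5.82, and Hook1, an adaptor of vesicle transport, at 4.53 and 5.87, with its other probe set at 0.16. Gpc4, a glypican of the cell surface, was at 7.23 and 8.41. On the lower side Parva, which links integrins to actin, was at 4.64 and 3.34, Anxa2, a membrane-binding annexin, at 6.80 and 5.78, and Svil, an actin-bound protein of muscle and membrane, at 5.56 and 4.42. Pmp22, a tetraspan membrane protein, was at 7.68 and 6.01 in Flk1+ cells and at 5.97 and 3.74 in Flk1- cells.

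Genes of chromatin and metabolism were among them as well. Smarca2, an ATPase of chromatin remodelling, was at 5.26 in control and 4.02 in knockout Flk1+ cells, and Runx1t1, a co-repressor, at 5.44 and 3.95, with probe sets from -1.49 to -0.10. Fabp3, a fatty acid carrier, was at 4.61 and 6.02, and Mt1, a metallothionein, at 5.96 and 7.22, with its other probe set at 0.15. Ugdh, which makes the sugar precursor of hyaluronan, was at 6.16 and 4.82, and Has2, which polymerizes hyaluronan, was at 7.25 and 6.58. In Flk1- cells the difference was below 0 for Smarca2, Runx1t1, Ugdh and Has2 and above 0 for Fabp3 and Mt1.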
